A study of Mus musculus with 8 samples.

Results

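A set of 10 genes of the lipid droplet surface was followed in mouse liver: the coat proteins Plin2, Plin3, Plin4 and Plin5, the droplet fusion proteins Cidea, Cideb and Cidec, the lipases Pnpla2 and Pnpla3, and the lipase inhibitor G0s2. They were taken by gene symbol, or by an older synonym, from the probes of the authors' processed table. Of the 10 genes, 9 had a probe there (10 probes among 40646, since Pnpla2 had 2), and these 9 stood among 14695 genes tested. G0s2 had a probe only in the scanner files and is described apart. The genes were selected on a known role in droplets and on their difference between miR-223KO and WT on these same arrays, so those differences are a description, and the p-values beside them show size against spread and support nothing.

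Lipid droplets store triglyceride and cholesterol ester inside the cell, under a single layer of phospholipid that carries a protein coat. Perilipins (Plin) on that layer control the access of lipases, CIDE proteins gather at contacts between droplets and pass lipid from the smaller to the larger, and ATGL (Pnpla2) starts the release of fatty acids, helped by Abhd5 and held back by G0s2. In a fatty liver the droplets fill hepatocytes, and several of these genes are known targets of the PPAR nuclear receptors. miR-223, abundant in myeloid cells, is the microRNA missing in the knockout. Its main mature strand is shown with the seed (bases 2 to 8) in capitals, from RefSeq on GRCm38.p6, at chrX:96242884-96242905 on the plus strand.
mmu-miR-223-3p: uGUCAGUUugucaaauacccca

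The study compared 4 WT and 4 miR-223KO samples of whole liver, all from male animals of the C57BL/6J background after 3 months of high-fat feeding. No group on a control diet was used here, and the sources used here give no age and do not say how the deletion was made or in which cells. Each sample was labelled with Cy5 and hybridised to an Agilent 2-colour array of its own against the Ambion Mouse Assorted Total RNA reference in Cy3, without a dye swap. All values below are log2 ratios of liver over that reference, and a difference is the mean of miR-223KO minus that of WT unless another contrast is named.

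Leaving out controls, each array carried 43379 spots, of which 49.5% to 69.8% exceeded background clearly in Cy5, with no saturated spot. Slide 1 held replicates 1 and 2 of each group and slide 2 held replicates 3 and 4. Whether the samples of a group are different mice is not stated in the labels, and the spread that p-values rest on may therefore be technical. No probe for Mir223 was found on the array, so the knockout itself was not checked. Albumin (Alb), the defining hepatocyte product, stood 2.01 above the reference on average over the 8 arrays. In bulk liver, fewer cells of a type and less RNA per cell cannot be told apart.

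The probes behind the results that follow were 60 bases long, and the first 30 bases of 4 of them are shown, those of the genes with the largest differences and of the gene whose probes disagreed.
Plin4 probe: cagcctgtgggtatgagacctgccctgaat
Cidec probe: tgcctgaatggacacagttcctgttctcct
Pnpla2 probe A_51_P197213: agtgtgtgaagaattatttatttttgccaa
Pnpla2 probe A_52_P681771: atccggtggatgaaagagcagacgggtagc

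None of the 9 genes passed the test. At a Benjamini-Hochberg adjusted p of 0.05 in limma, 0 of 9 were called, against 0.0119% of all 16755 genes and unnamed probes (2 of them). At an unadjusted p of 0.05, 2 of the 9 lay past the threshold, Plin4 and Cidec, where 4.67% of everything tested did. Both were higher in miR-223KO, the direction of 2.31% of everything tested at that threshold. In 1 of the 9, Plin4, no WT value reached a miR-223KO value, as in 3.09% of everything tested (1.64% in that direction). The difference was above 0 for 6 of the 9, where 48.2% of all were above 0, but for all 9 when arrays were centred on their median in place of loess, a scaling under which the median of all genes was 0.08. The median difference of the 9 was 0.06 and that of everything tested was -0.01. Since these genes were chosen with the contrast known, nothing is read from these shares.

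**Figure D1:**
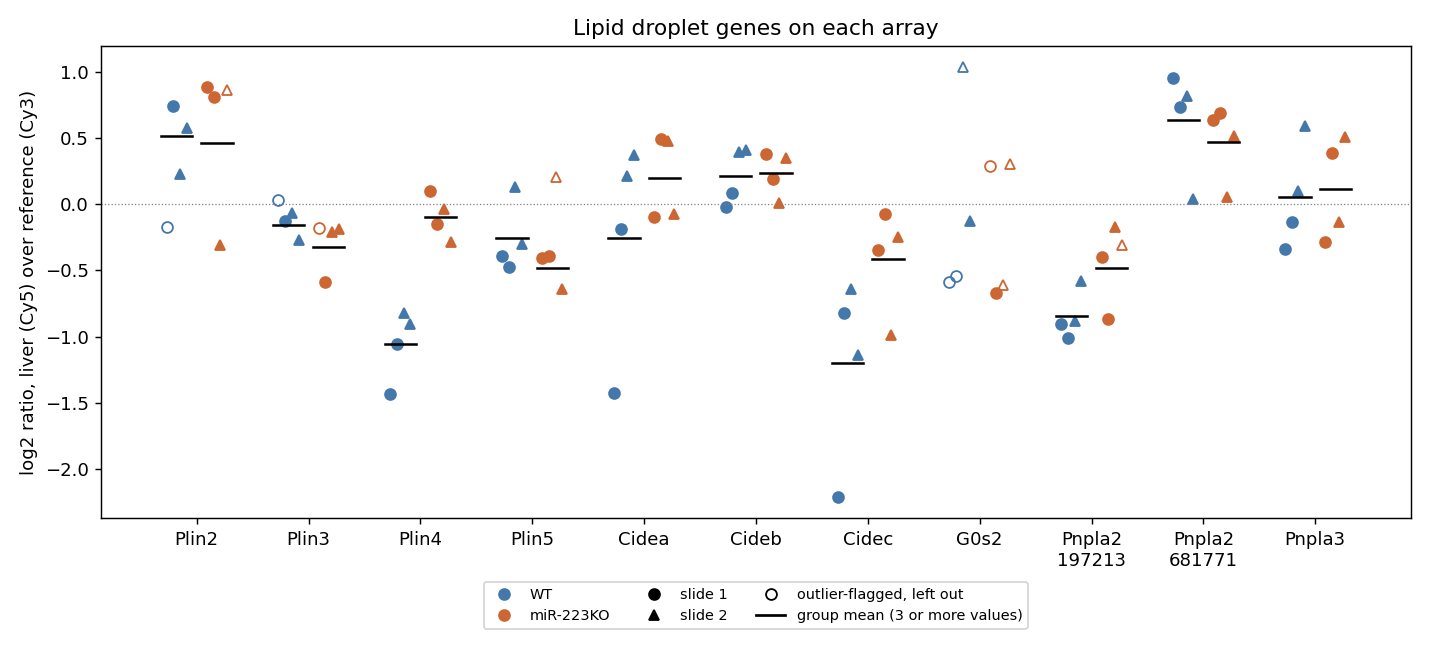
Log2 ratio of liver (Cy5) over the common reference (Cy3) for each lipid droplet gene in each of the 8 samples, with WT and miR-223KO samples apart and outlier-flagged spots left out. Plin4 is the gene whose 4 miR-223KO samples (-0.29 to 0.10) all lie above its 4 WT samples (-1.44 to -0.82).

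Plin4, a coat protein best known from adipocytes and muscle, differed most. Its log2 ratio was -1.44, -1.05, -0.82 and -0.91 in WT replicates 1 to 4, and 0.10, -0.15, -0.04 and -0.29 in miR-223KO replicates 1 to 4. The groups did not overlap, and WT replicate 1 was the lowest. The means were -1.05 ± 0.27 (SD, n = 4) in WT and -0.09 ± 0.16 (SD, n = 4) in miR-223KO, a difference of 0.96 ± 0.19 (SE) and a 1.95-fold higher ratio, with a 95% interval of 0.56 to 1.36. Its unadjusted p in limma was 0.000119, the rank of 5 among 16755, and its adjusted p was 0.398, past no threshold.

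The Plin4 spot was also read by channel. Before any correction, the Cy5 median intensity of its spot was 323, 287, 169 and 140.5 in WT and 570, 395, 552 and 498.5 in miR-223KO, over a local background of 51 to 63. Each miR-223KO spot was brighter than every WT spot, but the arrays of WT replicates 3 and 4 were dimmer as a whole, with a median Cy5 intensity of 87 and 79.5 against 93 to 135 in miR-223KO. Reference (Cy3) intensities overlapped, at 1180 to 1331.5 in WT and 815 to 1682 in miR-223KO. After normalisation between arrays, Cy5 differed by 0.97 and Cy3 by 0.01, a division that depends on that step. It was 1.22 within slide 1 and 0.70 within slide 2. In the authors' deposited table the Plin4 fold change was 1.08 on the log2 scale, and the groups did not overlap there.

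Plin2, the coat protein found on droplets of most cells and often used to mark steatosis, had its spot flagged as non-uniform on 2 arrays. The remaining ratios were 0.74, 0.23 and 0.57 in WT replicates 2, 3 and 4, and 0.88, 0.81 and -0.31 in miR-223KO replicates 1, 2 and 3. The groups overlapped, and miR-223KO replicate 3 was the lowest value of either group. The means were 0.52 ± 0.26 (SD, n = 3) and 0.46 ± 0.67 (SD, n = 3), a difference of -0.05 with a 95% interval of -0.70 to 0.59. This sign was not stable, being negative in 17 of 26 alternatives and positive in 9. The difference was -0.71 within slide 2 (miR-223KO from replicate 3 alone), -0.30 with slide as a block and -0.26 without miR-223KO replicate 1. It was 0.22 with the flagged spots kept, 0.33 without miR-223KO replicate 3, 0.51 with median centring and 0.36 in the authors' deposited table.

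Plin3, a coat protein that also lives in the cytosol and binds small new droplets, was flagged on 2 arrays as well. Its ratios were -0.13, -0.07 and -0.27 in WT replicates 2, 3 and 4, and -0.58, -0.21 and -0.18 in miR-223KO replicates 2, 3 and 4. The groups overlapped, with a difference of -0.17 and an interval of -0.63 to 0.29, and the sign was positive (0.18) under median centring. Plin5, the perilipin of oxidative tissues that ties droplets to mitochondria, gave -0.39, -0.48, 0.13 and -0.30 in WT and -0.41, -0.39 and -0.64 in miR-223KO replicates 1, 2 and 4. These groups overlapped too, with a difference of -0.22 and an interval of -0.66 to 0.22. For Plin5 the difference was -0.05 once the flagged spot of miR-223KO replicate 3 was kept, and 0.03 under median centring.

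Plin4 and Plin5 lie next to each other on chromosome 17, with Plin3 nearby, in the RefSeq annotation. The neighbours gave different values on the same arrays, 0.96 for Plin4 and -0.22 for Plin5, and the difference between the 2 genes was not tested. Their promoters are shown because the genes sit side by side, from 250 bases before to 50 bases after the start, as RefSeq gives them on GRCm38.p6. Both lie on the minus strand, Plin4 at chr17:56109733-56110032 and Plin5 at chr17:56117499-56117798. The capitals mark AGGTCA, the hexamer that nuclear receptors such as PPAR bind in pairs.
Plin4 promoter: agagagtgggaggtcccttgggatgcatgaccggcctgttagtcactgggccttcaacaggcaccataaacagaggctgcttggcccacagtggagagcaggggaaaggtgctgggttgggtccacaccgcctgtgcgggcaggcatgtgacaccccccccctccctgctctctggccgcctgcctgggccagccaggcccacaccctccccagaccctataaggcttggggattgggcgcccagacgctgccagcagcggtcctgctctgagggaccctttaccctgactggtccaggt
Plin5 promoter: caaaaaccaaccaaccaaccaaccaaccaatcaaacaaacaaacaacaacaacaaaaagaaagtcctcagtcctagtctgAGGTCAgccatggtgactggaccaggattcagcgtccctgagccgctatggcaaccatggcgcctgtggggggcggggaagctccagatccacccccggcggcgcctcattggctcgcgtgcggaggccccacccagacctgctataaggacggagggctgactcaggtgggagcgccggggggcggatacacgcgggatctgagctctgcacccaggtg
Promoter windows of 9 of the 10 genes were searched on both strands, 11 windows in all. The paired form DR1, a direct repeat of AGGTCA with 1 base of any kind between the copies, was in none of them, and in 0.0396% of 32851 promoters of this length. AGGTCA alone was found in the windows of 2 of the 9 genes, Plin5 (in each of its windows) and Plin2, and in 16.3% of all promoters. The count is by gene and the share is by promoter window, so they are not the same measure. These are matches of letters and say nothing of whether a factor binds.

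Cidec (FSP27) lets droplets fuse and grow, and is known as a fatty liver gene. Its ratios were -2.21, -0.82, -0.64 and -1.14 in WT and -0.35, -0.08, -0.99 and -0.25 in miR-223KO. The groups overlapped at miR-223KO replicate 3, and WT replicate 1 lay far below the other 7 samples. The means were -1.20 ± 0.70 and -0.41 ± 0.40 (SD, n = 4 each), a difference of 0.79 ± 0.30 (SE), or 1.73-fold, with an interval of 0.16 to 1.42. In limma the unadjusted p was 0.0174 and the adjusted p 0.98. Without WT replicate 1 the difference was 0.45. After normalisation between arrays, Cy5 differed by 0.91 and Cy3 by 0.12. The difference was 1.31 within slide 1 and 0.27 within slide 2, and the authors' deposited table gave 0.91.

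Cidea, the CIDE protein of brown fat that also appears in fatty liver, gave -1.42, -0.18, 0.21 and 0.37 in WT and -0.10, 0.49, 0.48 and -0.07 in miR-223KO. Again WT replicate 1 was the lowest sample, and the groups overlapped. The means were -0.26 ± 0.81 and 0.20 ± 0.33 (SD, n = 4 each), a difference of 0.45 with an interval of -0.21 to 1.12. Without WT replicate 1 it was 0.07, and within slide 2 it was -0.09.

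Cideb, the CIDE protein of hepatocytes that takes part in loading VLDL with lipid, gave -0.02, 0.09, 0.39 and 0.41 in WT and 0.38, 0.19, 0.01 and 0.35 in miR-223KO. Its groups covered nearly the same range. The difference was 0.02 with an interval of -0.37 to 0.41, and it was 0.25 within slide 1 and -0.22 within slide 2.

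**Figure D2:**
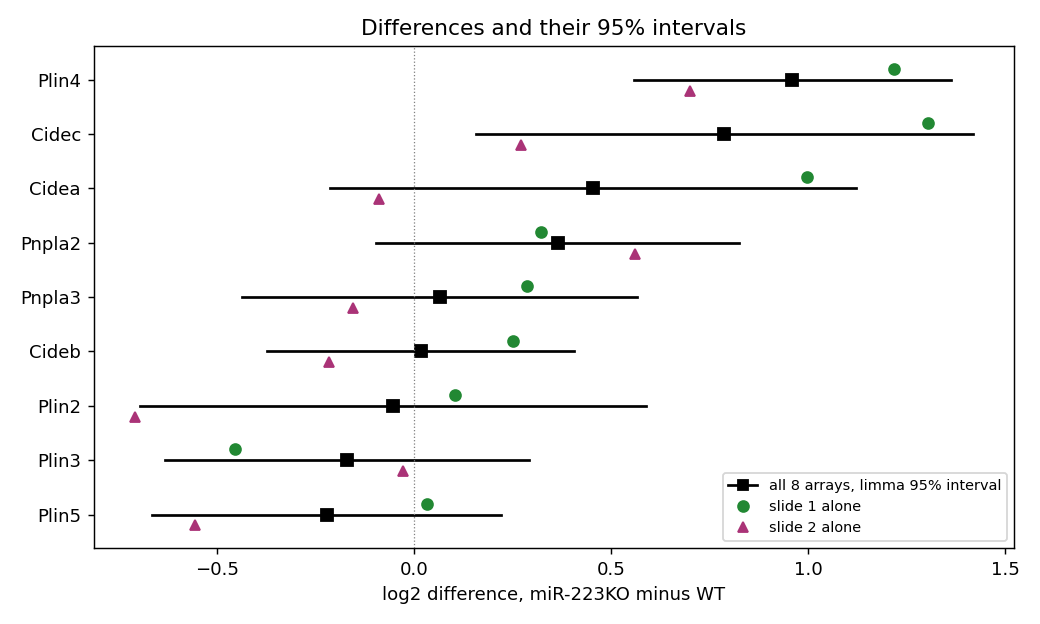
Difference of miR-223KO minus WT on the log2 scale for each lipid droplet gene, with its 95% interval from limma, and the values within slide 1 and slide 2. The intervals of Plin4 (0.56 to 1.36) and Cidec (0.16 to 1.42) lie above 0, and the other 7 cross it.

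Pnpla2 (ATGL), which cuts the first fatty acid from triglyceride, was read by 2 probes that did not give the same answer. The probe with the higher mean log2 signal over both channels, A_51_P197213, which stands for the gene in the test, gave -0.90, -1.01, -0.88 and -0.58 in WT and -0.40, -0.87 and -0.17 in miR-223KO replicates 1, 2 and 3. The groups overlapped at miR-223KO replicate 2, with means of -0.84 ± 0.18 (SD, n = 4) and -0.48 ± 0.35 (SD, n = 3) and a difference of 0.36 with an interval of -0.10 to 0.83. The other probe, A_52_P681771, gave 0.95, 0.73, 0.82 and 0.04 in WT and 0.64, 0.69, 0.05 and 0.51 in miR-223KO. It stood at 0.64 ± 0.41 and 0.47 ± 0.29 (SD, n = 4 each), a difference of -0.16 ± 0.22 (SE). Of the sequences shown above, the full probe A_51_P197213 holds 35% G and C and A_52_P681771 holds 55%. The authors' deposited table also had the 2 probes on opposite sides of 0, at 0.21 and -0.08.

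Pnpla3, a lipid remodelling enzyme whose human form carries a well-known fatty liver variant, gave -0.34, -0.13, 0.10 and 0.59 in WT and -0.29, 0.38, -0.13 and 0.51 in miR-223KO. The groups overlapped over almost their whole range. The difference was 0.06 with an interval of -0.44 to 0.57, and the spot was well above background in Cy5 on 7 of 8 arrays.

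G0s2, the peptide inhibitor of ATGL, was not tested, because its spot was flagged on 6 of 8 arrays. The unflagged values were -0.13 in WT replicate 4 and -0.67 in miR-223KO replicate 2. With flagged spots kept, the ratios were -0.59, -0.54, 1.03 and -0.13 in WT and 0.29, -0.67, -0.61 and 0.31 in miR-223KO. WT replicate 3, flagged in both channels, was the highest. The groups overlapped, at -0.06 ± 0.75 and -0.17 ± 0.54 (SD, n = 4 each), with a difference of -0.12 ± 0.33 (SE) and an adjusted p of 0.993 in limma.

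Against the mixed-tissue reference, 3 of the 9 stood above 0 on average over the arrays, given as a description. Plin2 stood at 0.49 ± 0.45 (SD, n = 6), Cideb at 0.22 and Pnpla3 at 0.09. Cidea (-0.03), Plin3 (-0.24), Plin5 (-0.35), Plin4 (-0.57) and Cidec (-0.81) stood below the reference. Pnpla2 stood at -0.69 by probe A_51_P197213 and at 0.55 by the other. The side of 0 depended on the processing. In the authors' deposited table Plin2 ran from -0.80 to -0.02 in WT and from -0.78 to 0.27 in miR-223KO. Plin3 ran there from -0.07 to 0.38 and from -0.35 to 0.24, and Pnpla3 from -0.52 to 0.41 and from -0.63 to 0.55. The dyes were not swapped, so a ratio to the reference may hold a dye effect, and levels of different genes are not compared.

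The contrast between slides is not the one the genes were selected on, but it rests on the same 8 arrays. Slide 2 against slide 1, with group in the limma model, called 0 of the 9 at an adjusted p of 0.05 (0.00597% of everything tested). At an unadjusted p of 0.05 it took 1 of the 9, where 9.11% of all passed. That gene was Plin2, 0.75 lower on slide 2 (difference -0.75 ± 0.25 SE, adjusted p 0.407 in limma). Group differences had the same sign within both slides for 4 of the 9, Plin3, Plin4, Cidec and Pnpla2, against 45.2% of everything tested. That count is of the contrast behind the selection, and nothing is read from it. Within slide 1, Plin3 rested on replicate 2 of each group alone, and within slide 2 its difference was -0.03. The other Pnpla2 probe was below 0 within each slide, at -0.18 and -0.15. Spread differed among the genes. The residual SD of Plin4 was larger than that of 26.8% of everything tested, while Cidec, Cidea and Plin2 exceeded 97.3%, 98.5% and 94.1%.

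**Figure D3:**
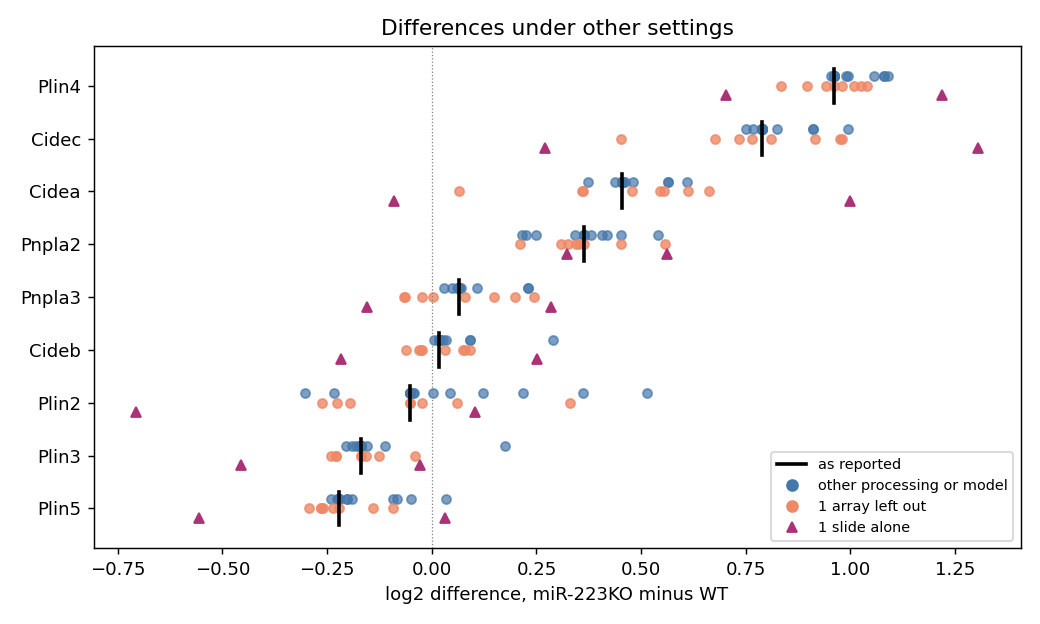
Difference of miR-223KO minus WT on the log2 scale for each lipid droplet gene under each processing alternative and with each sample left out, beside the main value. Plin4 (0.70 to 1.22) and Cidec (0.27 to 1.31) stay above 0 in all 26 alternatives run. So does Pnpla2 (0.21 to 0.56), read by its brightest probe except where its probes were averaged. The other Pnpla2 probe alone, not among the alternatives, gave -0.16. The other 6 genes lie on both sides of 0.

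Across the 8 arrays, Plin4 was followed most closely by Ear10 (an eosinophil-type ribonuclease of a family with near-identical copies), with a Pearson r of 0.995 among 12871 genes with values on every array. Next came Tmem273 (0.977), Ugt1a9 (0.962), which shares exons with other Ugt1a transcripts, Morc3 (0.959) and Anxa2 (0.956). Part of such an r is the group difference that Plin4 was chosen for. Within groups the r of Ear10 was 0.978 and that of Morc3 0.761, and without the 2 samples farthest from the Plin4 median they were 0.988 and 0.946. Among the lipid droplet genes, r with Plin4 was 0.751 for Cidec, 0.628 for Cidea, 0.266 for Cideb and 0.128 for Pnpla3. Without those 2 samples it was 0.462, 0.508, -0.359 and 0.056. Within groups r with Plin4 was 0.591 for Cidec, 0.771 for Cidea, 0.585 for Cideb and 0.107 for Pnpla3. Over 6 arrays Plin2 was followed most closely by Dda1 (0.988), Mvb12a (0.988), Podnl1 (0.985), Mroh7 (0.98) and Igflr1 (0.978), while its r with Plin4 was -0.10, and 0.79 without the 2 samples farthest from the Plin2 median. All points share the reference and the slides, and the genes named are the highest of 12871 and 12872 values over few arrays.

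The other genes of droplet biology gave no call in limma. For this list and those below, the shares over everything tested are 48.2% above 0 and 4.67% past an unadjusted p of 0.05. The share with groups that do not overlap is 3.09%. Of 20 other lipases and cofactors, 12 were tested, 0 were called and 0 lay past an unadjusted p of 0.05, with a median difference of 0.16 and 10 of 12 above 0. Abhd6, a monoacylglycerol lipase, stood 0.36 ± 0.23 (SE) higher and Ldah, a droplet hydrolase, 0.45 ± 0.28 (SE) higher, with overlapping groups. Abhd5 (CGI-58), the activator of ATGL, gave 0.17 ± 0.18 (SE), and -0.11 ± 0.18 (SE) by its other probe. Lipe, the hormone-sensitive lipase, gave -0.10 ± 0.19 (SE), with its other probe at -0.30. Mgll, Ces1d, Ces1f, Ces1g, Ces2a, Aadac and Pnpla7 were well above background on all 8 arrays but were not tested, since outlier flags left fewer than 3 values in a group.

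Of 32 genes of droplet formation and surface, 28 were tested and 0 called, again with 0 past an unadjusted p of 0.05 in limma. The median was 0.03 and 17 of 28 were above 0. Nsdhl, a sterol synthesis enzyme also found on droplets, differed by -0.72 ± 0.34 (SE) by its brightest probe, the one counted. Its 3 other probes gave -1.09 ± 0.33, -0.42 ± 0.37 and -0.08 ± 0.18 (SE). Hsd17b11, a droplet dehydrogenase, gave 0.42 ± 0.21 (SE). Dgat1 and Dgat2, which make the triglyceride, gave 0.02 and 0.24, the seipin gene Bscl2 gave -0.14, and the ATGL inhibitor Hilpda gave -0.24, all with overlapping groups. Other probes lay on the opposite side of 0 for Dgat1 (-0.07) and Bscl2 (0.08).

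Of 19 nuclear receptors and regulators of these genes, 17 were tested and 0 called in limma, with 2 past an unadjusted p of 0.05 and a median of -0.06. Ppara and Pparg, the receptors tied to droplet genes in hepatocytes, gave -0.06 ± 0.18 and 0.14 ± 0.19 (SE). Foxo1, a factor that induces Pnpla2, gave 0.62 ± 0.18 (SE) with groups that did not overlap by its brightest probe, but -0.09 ± 0.22 (SE) by its other probe. Ppargc1b, a coactivator of lipid genes, gave -0.47 ± 0.22 (SE), with its other probes at -0.39 and -0.19. Nr1h4, the lowest of the list, gave -0.48 ± 0.27 (SE) from 3 WT and 4 miR-223KO values. Its groups did not overlap, so 2 of the 17 had groups apart, Foxo1 higher and Nr1h4 lower in miR-223KO.

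Markers of other cell types were read beside Plin4, Cidec and Cidea, which adipocytes also express. Plin1, the perilipin that defines adipocytes, was well above background on 1 of 4 WT arrays and 0 of 4 miR-223KO arrays. Leptin (Lep) was so on 0 of 8, and adiponectin (Adipoq) on 2 arrays of each group. Retn was so on at most 1 WT array and 0 miR-223KO arrays by either of its probes. Trarg1 went the other way, with 0 WT and 2 miR-223KO arrays. Of 12 adipocyte markers 7 were tested, 0 were called in limma (1 at an unadjusted p of 0.05), and 2 were above 0 (Car3 and Cidea itself). Car3, which hepatocytes express too, gave 0.58 ± 0.19 (SE), with its other probe at 0.25 ± 0.35 (SE), and Cfd, or adipsin, gave -0.68 ± 0.33 (SE). The mean of the 6 markers with values on all arrays, Cidea among them, was -0.25 to 0.23 in WT and -0.26 to -0.14 in miR-223KO, and the groups overlapped. The part of the adipocyte level in the lipid droplet differences was not tested.

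Hepatocyte and macrophage markers lay on opposite sides of 0, with 0 called in either list. Of 12 hepatocyte markers 4 could be tested, all with values below 0 and 1 at an unadjusted p of 0.05 in limma, a median of -0.38, and Alb at -0.66 ± 0.25 and Apoa1 at -0.55 ± 0.28 (SE). The mean of the 2 with values on all arrays, again Alb and Apoa1, was 1.49 to 2.73 in WT and 1.13 to 1.39 in miR-223KO. These ranges did not overlap, but those of Alb alone and of Apoa1 alone did. Tat, Cps1, Cyp2e1, G6pc and Fgb were not tested, since outlier flags left fewer than 3 values in a group. Of 12 macrophage and Kupffer cell markers 10 were tested, 9 were above 0, 2 lay past an unadjusted p of 0.05 in limma and the median was 0.45, with Trem2 at 0.57 ± 0.21 and Csf1r at 0.54 ± 0.20 (SE). The other probe of Trem2 gave 0.16 ± 0.20 (SE), and those of Csf1r gave 0.37 and 0.31. Timd4, among the 9 above 0, gave 0.21 ± 0.20 (SE) but cleared the background on 2 WT arrays and 4 miR-223KO arrays. Timd4 thus passed the filter through the group where it is higher. The marker means over 8 genes overlapped, at -0.31 to 0.44 in WT and -0.11 to 0.50 in miR-223KO, and Gpnmb was well above background on 0 of 8 arrays. The part of these levels in the Plin4 and Cidec differences was not tested.

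Stellate cells, the other lipid-storing cells of the liver, showed a median marker difference of -0.04 over 10 of 10 markers. Of these, 4 were above 0 and 6 below, 0 were called in limma and 0 lay past an unadjusted p of 0.05. The 2 of smallest p were Colec11 at 0.41 ± 0.21 and Pdgfrb at 0.24 ± 0.20 (SE). Ngfr, the lowest, gave -0.19 ± 0.18 (SE). The mean over 9 stellate cell markers was -0.20 to 0.02 in WT and -0.09 to 0.05 in miR-223KO. Of 10 neutrophil markers, 7 were tested and 0 called in limma (1 at an unadjusted p of 0.05). Of the 7, 3 were above 0 and 4 below, with a median of -0.04. S100a8 and Elane were not tested, being too dim for the filter. S100a8 cleared the background on 0 WT and 3 miR-223KO arrays, and Elane on 0 WT and 2 miR-223KO arrays. The mean of the 7, S100a9 among them, was -0.04 to 0.10 in WT and 0.05 to 0.24 in miR-223KO, and the groups overlapped. S100a9, a protein of neutrophils, gave 0.61 ± 0.21 (SE) with groups that did not overlap. Its signal cleared the background on only 2 of 4 WT arrays, against 4 of 4 for miR-223KO. S100a9 thus passed the filter through the group where it is higher. Prtn3, a granule protease, gave 0.21 ± 0.17 (SE), and Csf3r, the lowest of the list, gave -0.21 ± 0.22 (SE). The part of the neutrophil level in the lipid droplet differences was not tested.

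**Figure D4:**
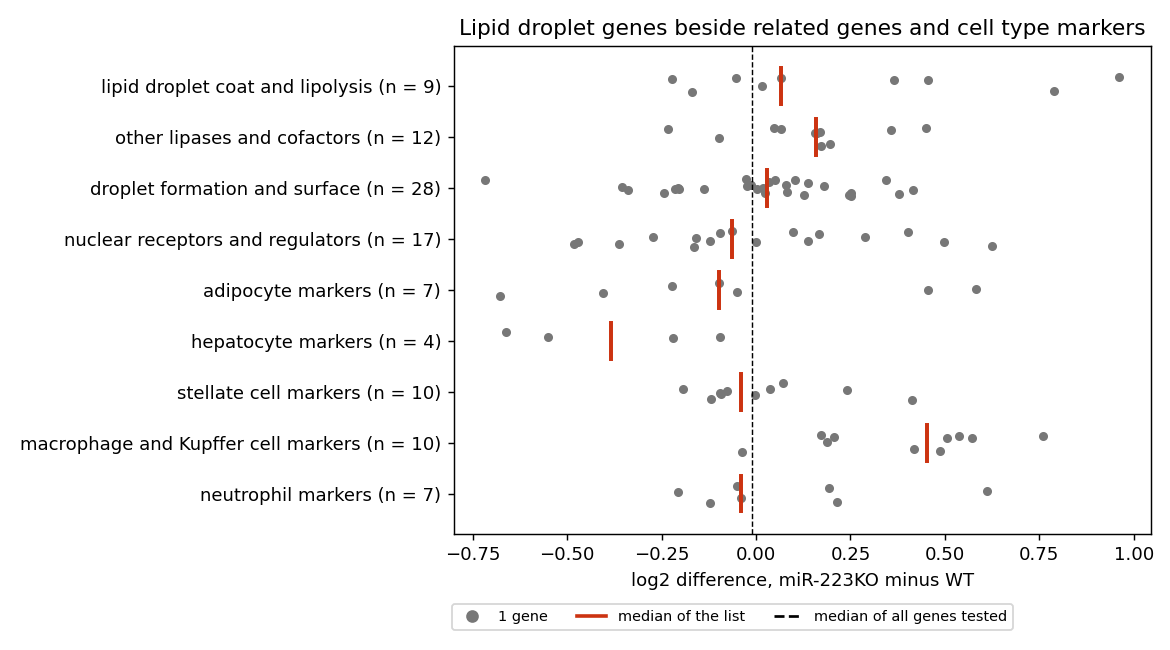
Difference of miR-223KO minus WT on the log2 scale for each tested gene of the lipid droplet group, of related gene lists and of cell type marker lists, 1 point per gene, with each list's median as a bar and the median of all genes tested (-0.01) as a dashed line. The median is 0.06 for the lipid droplet genes, -0.38 for hepatocyte markers and 0.45 for macrophage and Kupffer cell markers.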

How the data were processed

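Per the file headers, the arrays (Agilent design 014868) were read with Agilent Feature Extraction 12.0.3.1, and the scanner files hold median spot and background signals as intensity and a log10 ratio of Cy5 over Cy3. The authors' deposited table holds log2 ratios of processed signals, and its fold change is the difference of the group means (miR-223KO less WT), within 5.2e-07. Here, outlier-flagged local backgrounds took the median of all unflagged ones on the same array and channel, since 1 array held values up to 46250. Background was corrected by normexp (offset 50) and ratios by loess within arrays in limma 3.58.1 under R 4.3.3. Controls and outlier-flagged spots (2% to 5.67%) were left out. Testing a probe required Cy5 well above background on 4 or more of 8 arrays and 3 or more values per group, and a gene was its brightest probe. The two-sided test was lmFit with eBayes, and p-values were adjusted by Benjamini-Hochberg over 16755 features, named or not, after a check on simulated data. The number of arrays limits the precision, with a median SE of 0.21. Differences within 1 channel were rebuilt after Aquantile normalisation.

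Probes were named by RefSeq accession (28462) or by the table's symbol (5203 current, 322 updated and 1377 kept as given), and 5810 stayed unnamed. The genes and lists were chosen with earlier results of these data known. Named genes are all 10 lipid droplet genes, from each other list any called or otherwise the 2 of smallest p, and the 5 genes most correlated with Plin4 and Plin2. Other list members were picked for their role, for their signal against background, or as the lowest of a list, after their values were seen. Replicate numbers of WT and miR-223KO did not pair the samples. Alternatives changed background, normalisation, filters, probes, slide, weights and samples.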

Additional observations from a re-analysis of the deposited data

How the results depend on the processing

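No lipid droplet gene was called under any alternative that gave a call. The number of all genes called was 2. It was 1 with Agilent's processed signals, with flagged spots kept, with the mean of a gene's probes and with median centring. It was also 1 with outlying local backgrounds kept and with the authors' deposited log2 ratios. It was 3 with Cy5 required on all 8 arrays or with an intensity trend in eBayes, and 4 with a normexp offset of 16. Leaving out 1 sample at a time gave 2 to 4, with 4 without miR-223KO replicate 1. Of the 9 lipid droplet genes, 6 were above 0, 8 on slide 1 alone and 3 on slide 2 alone, 9 under median centring, and 4 to 7 with 1 sample left out. For Plin4 the adjusted p in limma was 0.214 to 0.98 over the alternatives with a test. Samples sharing a replicate number did not deviate together (correlations -0.00208, 0.0624, 0.0083 and -0.0227, with 1 of 4 WT samples closest to its own number). With the replicate number as a block, 2 genes and 0 lipid droplet genes were called, and Plin4 stood at 0.96 with an adjusted p of 0.469. With Cy5 required on all 8 arrays, Pnpla3 was not tested. The causes of these shifts were not tested. With 4 samples a group, differences near the median SE of 0.21 cannot be told from the spread, and genes with flagged spots (Plin2, Plin3, Plin5, Pnpla2, G0s2) rest on fewer arrays.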
